A study of Homo sapiens with 17 samples.

Results

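Base excision repair is represented here by 10 genes chosen by name: the DNA glycosylases UNG, TDG, OGG1, MUTYH, NTHL1, NEIL1 and MPG, and their downstream partners APEX1, POLB and XRCC1. All 10 were found among the 16884 protein-coding genes of the deposited table, and all 10 passed the filter on low counts. They were measured in BEAS-2B cells, a line immortalised from the human bronchial epithelium, wild type in every group and kept in the bronchial medium BEGM. The control group (6 libraries) had 0 mM acetaldehyde, the low group (6 libraries) 10 mM and the high group (5 libraries) 16 mM, each for 24 h. Acetaldehyde is a reactive aldehyde made from ethanol and present in tobacco smoke. Nothing in the labels tells separate cultures from repeated libraries, so p-values reflect library-to-library spread only, which may in part be technical.

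Base excision repair removes single damaged or misplaced bases from DNA. A glycosylase that recognises the wrong base cuts it from its sugar, the endonuclease APEX1 opens the backbone at the empty site, the polymerase POLB fills the gap, and a ligase held by the scaffold XRCC1 seals it. In airway cells the pathway is best known for dealing with oxidised, deaminated and alkylated bases, whereas the crosslinks and bulky adducts that aldehydes form with DNA are handled largely by other pathways.

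Estimated counts summed to between 15952673 and 18809242 per library. Library 1 of the 10 mM group stood apart from the other 16: its mean transcript length, weighted by abundance, was 1023 nt against 1805 to 1973 nt, and its TMM scaling factor was 0.559 against at least 0.967. Results of the members are therefore given with it and without it. Within each group some libraries lay close together (a chi-square between libraries of under 5 per gene), which left 8 sets, and those sets were also summed and refitted. The epithelial keratins KRT7, KRT8, KRT18 and KRT17 averaged 559, 306, 377 and 48.4 FPKM in control (FPKM are fragments per kilobase of transcript, scaled to library depth). FPKM do not carry the TMM factor, so FPKM and the edgeR fits place 10 mM library 1 on different scales. EPCAM, CDH1, KRT5 and KRT19 reached at most 0.12 FPKM in any library, so those defining epithelial markers were absent or nearly so. Of the lists for other cell types, the 7 measured fibroblast genes summed to 15.1 to 25.1 FPKM in control and 4.91 to 10.0 FPKM at 16 mM, and 4 of the 5 tested were called lower at 16 mM. COL1A2 and COL3A1 reached at most 0.01 FPKM. The leukocyte, endothelial and ciliated or secretory lists summed to at most 1.63, 0.65 and 0.05 FPKM in any library. The part of the fibroblast list in the results below was not tested. In bulk RNA, fewer cells of a kind and less RNA per cell cannot be told apart.

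Promoter sequence was looked at because several members moved together. RefSeq promoter windows (GRCh38.p14, 250 bases before to 50 after a transcript start) were matched by symbol for 9 of the 10 members, 14 windows in all. The stretches shown belong to the member that rose (TDG), the glycosylases with the largest falls (UNG, OGG1) and the most abundant member (APEX1). Each is the longest run of its window that lies outside annotated exons, written 5′ to 3′ on the strand of the gene, with motif matches on either strand in capitals.
TDG, chr12:103965709-103965803, plus strand: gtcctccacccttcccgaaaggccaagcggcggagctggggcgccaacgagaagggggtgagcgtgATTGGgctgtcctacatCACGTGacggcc
UNG, chr12:109097347-109097573, plus strand: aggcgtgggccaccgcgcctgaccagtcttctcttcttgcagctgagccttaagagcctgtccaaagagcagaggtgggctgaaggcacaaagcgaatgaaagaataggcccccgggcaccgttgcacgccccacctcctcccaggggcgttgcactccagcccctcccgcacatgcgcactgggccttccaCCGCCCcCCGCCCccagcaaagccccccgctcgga
OGG1, chr3:9749702-9749943, plus strand: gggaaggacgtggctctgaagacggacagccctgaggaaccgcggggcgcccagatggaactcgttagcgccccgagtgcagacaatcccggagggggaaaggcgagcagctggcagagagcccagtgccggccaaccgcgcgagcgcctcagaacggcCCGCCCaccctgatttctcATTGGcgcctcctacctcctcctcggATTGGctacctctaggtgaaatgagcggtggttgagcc
APEX1, chr14:20455106-20455190, plus strand: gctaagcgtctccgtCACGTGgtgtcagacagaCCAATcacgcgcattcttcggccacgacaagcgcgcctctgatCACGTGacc
The capitals mark the E-box CACGTG, the CCAAT box and the GC box GGGCGG, or their reverse complements. Over whole windows, CACGTG was present in 5 of the 9 matched members (UNG, NTHL1, MPG, TDG and APEX1, with 3 copies in APEX1), which is 5 of their 14 windows, and in 7.26% of all 35116 windows. CCAAT was in 8 members and 10 of the 14 windows, against 34.6% of all windows, and GGGCGG in 7 members and 10 of the 14, against 45%. The sequence CCGGAAGT was in 2 of the 14 windows, against 4.14% of all windows, and TGACNNNGC in 2 of the 14, against 13.3%. TGACGTCA, TTTCCCGC and TTTGGCGC were in none of the 14 member windows. CACGTG and TGACGTCA read the same on both strands, and no searched motif contains another. GC content ran from 54.7% to 77.0% over the member windows, mostly above the median of 58.7% over all windows. Windows of the same gene can overlap, so a match can be counted in more than 1 window. A match is a description of letters only.

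At 16 mM acetaldehyde the members moved in both directions, as did tested genes at large. TDG rose and XRCC1 fell. UNG, OGG1, MPG and APEX1 were lower in each of the 5 exposed libraries than in each of the 6 control libraries. With all 17 libraries in 1 edgeR fit, 1 member was called higher (TDG) and 1 lower (XRCC1) at an adjusted p under 0.05, where 35.3% of the 12564 tested genes were called (17.3% higher, 18.1% lower). Leaving out 10 mM library 1, which is not in this contrast but enters the common estimate of spread, gave 1 higher and 7 lower, where 65.9% of 12545 genes were called (33.7% higher, 32.2% lower). Fitting only the control and 16 mM libraries gave 1 higher and 6 lower, where 64.3% of 12410 genes were called (32.7% higher, 31.6% lower). The median log2 change over the 10 members was -0.47 with all libraries and -0.46 without 10 mM library 1, against 0.00 and 0.01 over all tested genes. By FPKM, 1 member was wholly above and 5 wholly below the control range, where 46.1% of tested genes did not overlap (23.8% above, 22.3% below). Summing the close libraries with 10 mM library 1 kept left 0 members called (0.985% of 13193 genes were called), and without it 1 higher and 4 lower (39.2% of 13197 genes were called).

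At 10 mM the outcome depended on 10 mM library 1. With it, TDG was called higher and XRCC1 lower, where 18.7% of tested genes were called (9.41% higher, 9.30% lower), and XRCC1 was lost when control library 2 or 3 or 10 mM library 5 or 6 was left out. Without it, TDG and NTHL1 were called higher and UNG, OGG1, MUTYH, MPG, APEX1 and XRCC1 lower, where 45.2% of tested genes were called (22.4% higher, 22.8% lower). The median log2 change of the members was 0.05 with that library, equal to the 0.05 of all tested genes, and -0.44 without it, against 0.00. Without it, 2 members lay wholly above and 5 wholly below the control libraries in FPKM, where 29.2% of tested genes did not overlap (15.0% above, 14.2% below). With it these were 1 and 1, where 15.1% did not overlap (4.55% above, 10.5% below). These counts use FPKM, which do not carry the TMM factor of that library. Summing the close libraries left 0 members called with that library (0% of genes were called), and 1 higher and 3 lower without it (9.01% of genes were called). The 2 exposed groups share their controls, so their values stand side by side below and are not counted as independent.

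**Figure D1:**
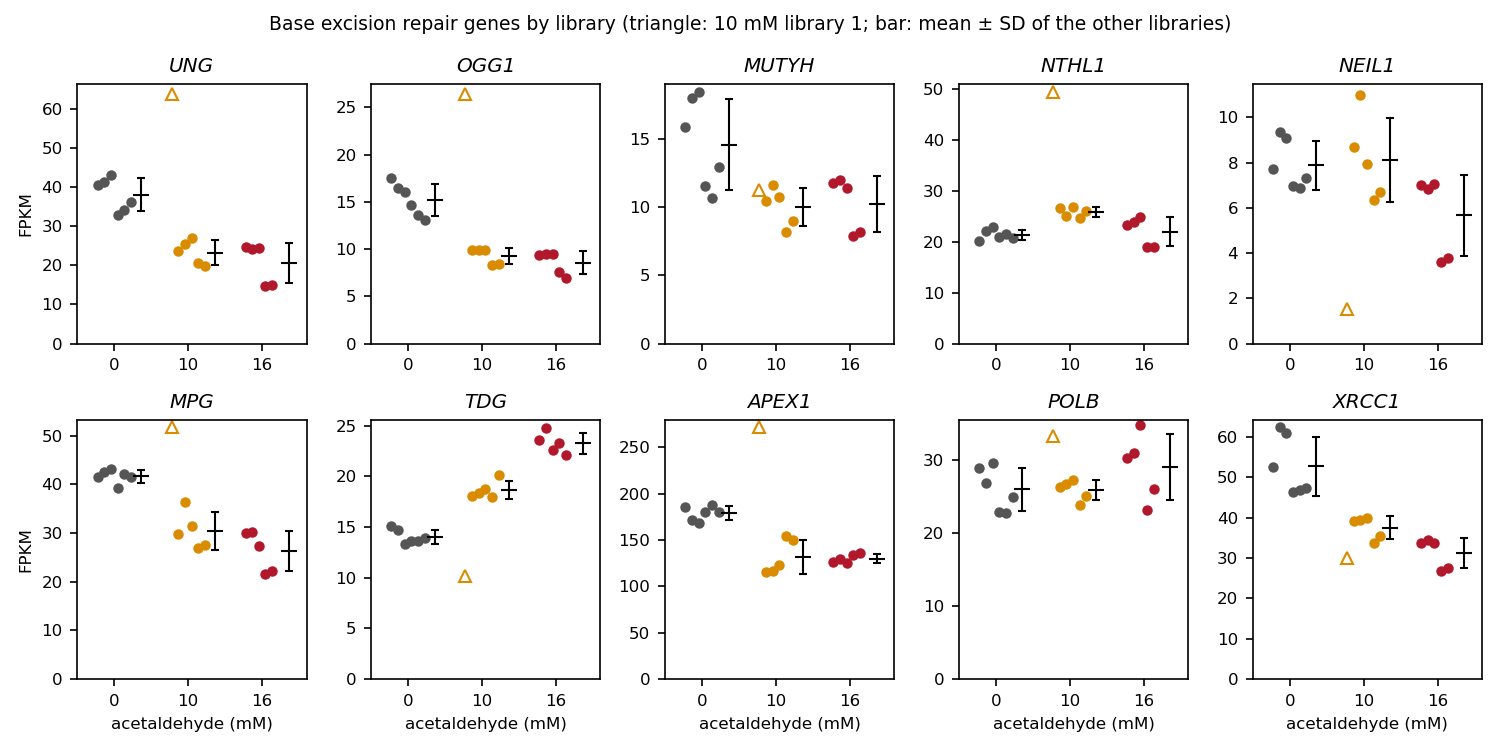
FPKM of the 10 genes (vertical axis, from 0) in each library at 0, 10 and 16 mM acetaldehyde; dots are libraries, the open triangle is 10 mM library 1, and the bar is the mean ± SD of the other libraries of that group. TDG lies between 13.3 and 15.1 in control and between 22.1 and 24.8 at 16 mM, while XRCC1 lies between 46.3 and 62.4 in control and between 26.7 and 34.6 at 16 mM.

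Among the glycosylases for deaminated bases, TDG and UNG moved in opposite directions. TDG (gene ID 6996, chr12:103965842-103988874) removes thymine and uracil from mismatches with guanine and takes out oxidised forms of methylcytosine during DNA demethylation. Its control libraries held 13.3 to 15.1 FPKM (median 13.8, n = 6). At 10 mM libraries 2 to 6 held 18.0, 18.3, 18.8, 18.0 and 20.2 FPKM, and library 1 held 10.1 FPKM. At 16 mM the 5 libraries held 23.6, 24.8, 22.6, 23.2 and 22.1 FPKM. In FPKM the 3 groups did not overlap and followed the dose, apart from 10 mM library 1, which was below every control. FPKM do not carry the TMM factor of that library (0.559), whereas the edgeR fits do. There the 10 mM estimate was nearly the same with that library (0.40) and without it (0.41). TDG was 1.67-fold higher at 16 mM (log2 change 0.74 ± 0.07 SE, adjusted p = 1.39e-06) and 1.32-fold higher at 10 mM (0.40 ± 0.07, adjusted p = 0.000976). Without 10 mM library 1 the log2 changes were 0.75 ± 0.05 (adjusted p = 5.09e-09) and 0.41 ± 0.05 (adjusted p = 1.75e-05). Leaving out any other library also kept both calls. With the close libraries summed the calls were kept without 10 mM library 1 (adjusted p = 0.00158 and 0.0467) and lost with it (adjusted p = 0.118 and 0.36). The 10 mM call of TDG was also lost in limma on log2(FPKM + 1) with all libraries (log2 change 0.25, adjusted p = 0.191).

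UNG (gene ID 7374, chr12:109097597-109110992) removes uracil that was incorporated from the nucleotide pool or formed from cytosine. Control libraries held 32.8 to 43.1 FPKM (median 38.5, n = 6). At 10 mM libraries 2 to 6 held 23.6, 25.5, 27.0, 20.6 and 19.8 FPKM, and library 1 held 63.9 FPKM. The 16 mM libraries held 24.6, 24.2, 24.35, 14.8 and 15.0 FPKM. All exposed libraries but 10 mM library 1 were below the lowest control, and 10 mM library 1 was above the highest. UNG had a log2 change of -0.88 ± 0.40 at 16 mM with all libraries (adjusted p = 0.0972) and -0.88 ± 0.12 without 10 mM library 1 (adjusted p = 4.44e-06). In the fit of control and 16 mM alone it fell with an adjusted p of 4.73e-05. At 10 mM the estimate was 0.05 ± 0.37 (adjusted p = 0.937) with that library and -0.71 ± 0.11 (adjusted p = 0.000113) without it. In the authors' deposited table the UNG log2 fold change was -0.89 at 16 mM (q = 9.8e-12) and 0.11 at 10 mM (q = 0.95).

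Of the 4 members that act on oxidised bases or on adenine paired with them, OGG1 had the largest log2 change at 16 mM. MUTYH and NEIL1 followed, and NTHL1 was near its control level. OGG1 (gene ID 4968, chr3:9749952-9788246) excises oxidised guanine paired with cytosine. Control libraries held 13.1 to 17.5 FPKM (median 15.3, n = 6). At 10 mM libraries 2 to 6 held 9.91, 9.89, 9.93, 8.31 and 8.37 FPKM, and library 1 held 26.5 FPKM. In the 16 mM group they held 9.40, 9.43, 9.49, 7.54 and 6.94 FPKM. As with UNG, every exposed library but 10 mM library 1 was below every control. OGG1 had a log2 change of -0.76 ± 0.37 at 16 mM (adjusted p = 0.127) with all libraries and of -0.75 ± 0.09 (adjusted p = 9.79e-07) without that library, which is 0.595 times the control level. At 10 mM the estimates were 0.05 ± 0.35 (adjusted p = 0.937) and -0.65 ± 0.09 (adjusted p = 1.68e-05). Without 10 mM library 1, OGG1 differed little between the doses: the 16 mM against 10 mM log2 change was -0.10 ± 0.09, and 2 SE either way ran from -0.28 to 0.08.

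MUTYH (gene ID 4595, chr1:45329242-45340447) removes adenine wrongly inserted opposite oxidised guanine, so it acts on the same lesion as OGG1 after replication. Its control libraries split by library: libraries 1 to 3 held 15.9, 18.1 and 18.5 FPKM and libraries 4 to 6 held 11.6, 10.7 and 13.0 FPKM. The 10 mM libraries held 8.19 to 11.7 FPKM (median 10.6, n = 6) and the 16 mM libraries held 11.8, 12.0, 11.4, 7.93 and 8.17 FPKM. Library 1 of the 10 mM group held 11.3 FPKM, a scale that does not carry its TMM factor of 0.559. Exposed and control libraries overlapped at both doses. At 16 mM the MUTYH log2 change was -0.49 ± 0.21 (adjusted p = 0.0782) with all libraries and -0.48 ± 0.13 (adjusted p = 0.00457) without 10 mM library 1. At 10 mM it was -0.30 ± 0.20 (adjusted p = 0.294) and -0.53 ± 0.13 (adjusted p = 0.00447). Both calls were lost once the close libraries were also summed (adjusted p = 0.0551 and 0.0994).

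NTHL1 (gene ID 4913, chr16:2039820-2047847) excises oxidised pyrimidines and can cut the backbone itself. Control libraries held 20.03 to 22.8 FPKM (median 21.2, n = 6). At 10 mM libraries 2 to 6 held 26.6, 24.98, 26.7, 24.6 and 26.1 FPKM, and library 1 held 49.3 FPKM. The 16 mM libraries held 23.3, 23.8, 24.9, 18.9 and 19.03 FPKM. The 10 mM libraries were all above control, while the 16 mM libraries lay on both sides of it. The NTHL1 log2 change at 10 mM was 0.80 ± 0.29 (adjusted p = 0.0619) with library 1 and 0.27 ± 0.07 (adjusted p = 0.00285), or 1.21-fold, without it. At 16 mM it was 0.04 ± 0.30 (adjusted p = 0.94), and without that library 0.05 ± 0.07, with 2 SE either way running from -0.09 to 0.18. Its call at 10 mM without library 1 was lost with the close libraries summed (adjusted p = 0.191).

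NEIL1 (gene ID 79661, chr15:75345589-75357115) also excises oxidised pyrimidines and prefers open, replicating DNA. It was the member with the lowest level per transcript length in control, 7.89 ± 1.08 FPKM (SD, n = 6). Control libraries ranged from 6.87 to 9.34 FPKM and 10 mM libraries 2 to 6 from 6.36 to 11.0 FPKM, and 10 mM library 1 held 1.54 FPKM. At 16 mM libraries 1 to 3 held 7.01, 6.85 and 7.07 FPKM and libraries 4 and 5 held 3.60 and 3.79 FPKM. The difference at 16 mM thus lay mostly in libraries 4 and 5. The NEIL1 log2 change at 16 mM was -0.35 ± 0.22 (adjusted p = 0.234) with all libraries and -0.35 ± 0.15 (adjusted p = 0.0477) without 10 mM library 1. That call was lost in the fit of control and 16 mM alone (adjusted p = 0.0633) and with the close libraries also summed (adjusted p = 0.182). At 10 mM it was -0.11 ± 0.21 (adjusted p = 0.741) and, without library 1, 0.05 ± 0.14 (adjusted p = 0.821).

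MPG (gene ID 4350, chr16:77007-85846) excises alkylated purines, deaminated adenine and etheno adducts. Control libraries held 39.3 to 43.2 FPKM (median 41.9, n = 6), the tightest control range in proportion to its level among the glycosylases. At 10 mM libraries 2 to 6 held 29.8, 36.5, 31.4, 26.9 and 27.5 FPKM, and library 1 held 51.7 FPKM. At 16 mM the libraries held 30.02, 30.1, 27.4, 21.6 and 22.3 FPKM. All of these except 10 mM library 1 were below every control. MPG had a log2 change of -0.66 ± 0.28 at 16 mM (adjusted p = 0.0766) with all libraries and -0.65 ± 0.08 (adjusted p = 2.66e-06) without that library. At 10 mM the estimates were 0.00 ± 0.26 (adjusted p = 0.999) and -0.45 ± 0.08 (adjusted p = 0.000273). With the close libraries also summed, the 16 mM call was kept (adjusted p = 0.00721) and the 10 mM call was lost (adjusted p = 0.0725).

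APEX1 (gene ID 328, chr14:20455219-20457767), the main endonuclease for sites left without a base and also a redox regulator of transcription factors, was the most abundant member per transcript length at every dose. Control libraries held 169 to 188 FPKM (median 179.8, n = 6). At 10 mM libraries 2 to 4 held 115, 117 and 123 FPKM, libraries 5 and 6 held 154 and 149.6 FPKM, and library 1 held 271 FPKM. The 16 mM group held 127, 129, 125, 134 and 136 FPKM. Apart from 10 mM library 1, no exposed library reached the control range. The APEX1 log2 change at 16 mM was -0.45 ± 0.32 (adjusted p = 0.306) with all libraries and -0.44 ± 0.09 (adjusted p = 0.000514) without that library. At 10 mM it was 0.13 ± 0.31 (adjusted p = 0.788) and -0.43 ± 0.09 (adjusted p = 0.00128). Both calls were lost once the close libraries were also summed (adjusted p = 0.0635 at 16 mM and 0.149 at 10 mM). The doses differed, once 10 mM library 1 was left out, by -0.01 ± 0.10 in log2 (2 SE either way, -0.20 to 0.19).

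POLB (gene ID 5423, chr8:42338452-42371810) fills the gap and removes the leftover sugar phosphate. Control libraries held 22.7 to 29.6 FPKM (median 25.9, n = 6). The 10 mM libraries held 23.9 to 33.3 FPKM (median 26.5, n = 6), the highest being library 1. The 16 mM libraries held 30.3, 30.9, 34.9, 23.1 and 26.0 FPKM. The groups overlapped at both doses. The POLB log2 change at 16 mM was 0.17 ± 0.22 (adjusted p = 0.594), and without 10 mM library 1 it was 0.18 ± 0.08 (adjusted p = 0.0532; 2 SE either way, 0.02 to 0.33). At 10 mM it was 0.33 ± 0.21 (adjusted p = 0.281) and, without library 1, -0.00 ± 0.08 (adjusted p = 0.979).

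XRCC1 (gene ID 7515, chr19:43543311-43575618), the scaffold that holds POLB and the ligase LIG3 at the break, fell at both doses. Control libraries held 52.4, 62.4, 60.9, 46.3, 46.9 and 47.4 FPKM. At 10 mM the libraries held 30.01, 39.3, 39.5, 39.8, 33.7 and 35.3 FPKM, and at 16 mM 33.8, 34.6, 33.7, 26.7 and 27.6 FPKM. In FPKM every exposed library, 10 mM library 1 among them, was below every control. FPKM do not carry the TMM factor of that library (0.559), whereas the edgeR fits do. In those fits the 10 mM change was smaller in size with that library than without it. XRCC1 at 16 mM was 0.599 times its control level (log2 change -0.74 ± 0.12, adjusted p = 0.000126), and without 10 mM library 1 the log2 change was -0.73 ± 0.07 (adjusted p = 8.83e-08). At 10 mM it was -0.37 ± 0.11 (adjusted p = 0.0275) with library 1 and -0.48 ± 0.07 (adjusted p = 2.87e-05) without it. The 10 mM call was lost when control library 2 or 3 or 10 mM library 5 or 6 was left out (adjusted p up to 0.0701), with DESeq2 size factors (0.0542), in the fit of control and 10 mM alone (0.0864) and with control libraries 4 to 6 as the only controls (0.307). With the close libraries summed and 10 mM library 1 kept, both calls were lost (adjusted p = 0.204 at 16 mM and 0.524 at 10 mM). The deposited table puts XRCC1 on the plus strand and RefSeq on the minus strand, and no value here uses the strand.

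**Figure D2:**
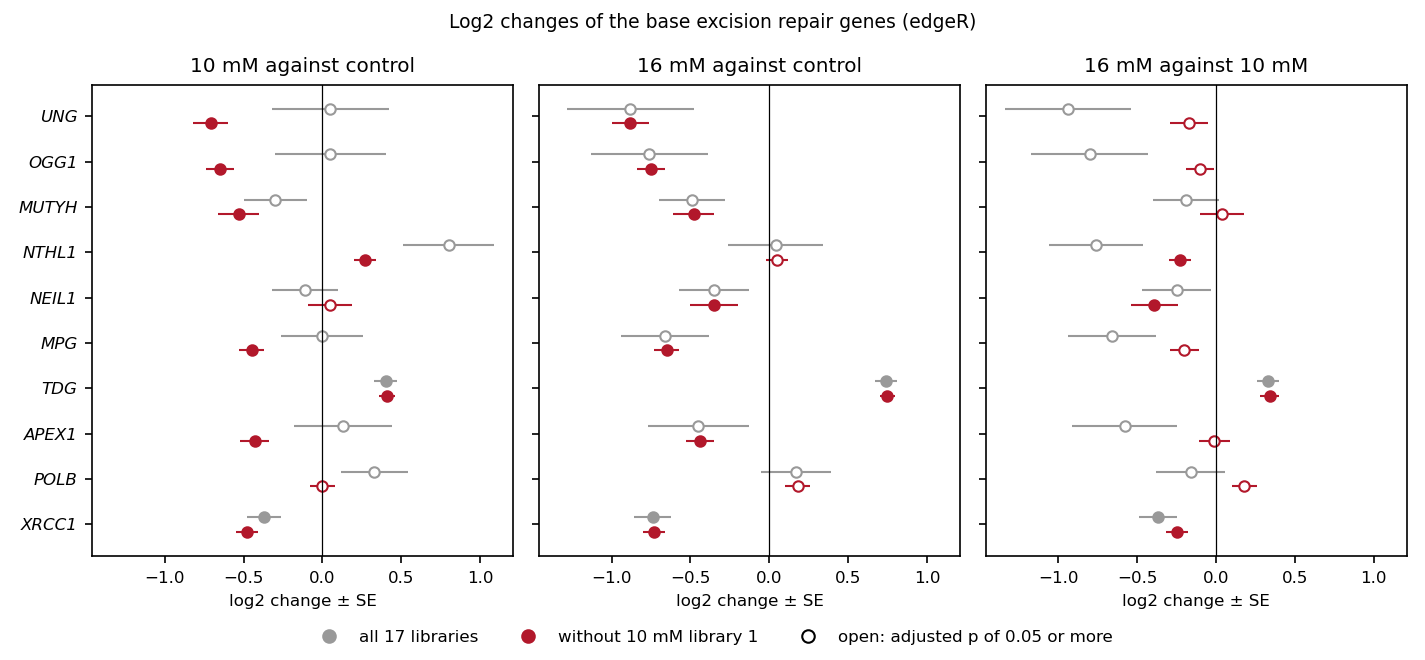
Log2 change ± SE from edgeR (horizontal axis, the same in all 3 panels) of each gene in 3 comparisons; grey points are the fit of all 17 libraries, red points the fit without 10 mM library 1, and open points have an adjusted p of 0.05 or more. At 16 mM the grey and red points of each gene nearly coincide and differ in their errors (UNG, -0.88 ± 0.40 and -0.88 ± 0.12), whereas at 10 mM UNG, OGG1, MPG and APEX1 shift from near 0 to between -0.71 and -0.43.

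Between the 2 doses, TDG was the member that rose further. Its log2 change from 10 mM to 16 mM was 0.33 ± 0.07 (adjusted p = 0.00873) with all libraries and 0.34 ± 0.06 (adjusted p = 0.000234) without 10 mM library 1. The members called were TDG higher and XRCC1 lower, where 14.1% of tested genes were called (6.69% higher, 7.46% lower). XRCC1 had a log2 change of -0.37 ± 0.12 (adjusted p = 0.0431). That call was lost in 13 of the 17 fits that each left out 1 library, namely any 16 mM library, any control library other than 2, or 10 mM library 2, 3 or 4 (adjusted p up to 0.12), and in the fit of the 2 exposed groups alone (0.13). The XRCC1 change without 10 mM library 1 was -0.25 ± 0.07 (adjusted p = 0.00965). That fit also called NTHL1 (-0.23 ± 0.07, adjusted p = 0.0134) and NEIL1 (-0.39 ± 0.15, adjusted p = 0.047) lower at 16 mM, where 44.1% of tested genes were called (23.2% higher, 20.9% lower). With the close libraries summed, 0 members were called between the doses whether 10 mM library 1 was kept or not, and 0% of all genes were called in either fit (for TDG, adjusted p = 0.596 and 0.146). UNG, OGG1, MUTYH, MPG and APEX1 were not called between the doses in either fit of single libraries. For UNG without 10 mM library 1, 2 SE either way ran from -0.41 to 0.07.

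The levels in order of FPKM, which is scaled for transcript length, changed for TDG more than for the other members. In control the order of the means was APEX1 (179 FPKM), XRCC1 (52.7), MPG (41.7), UNG (38.1), POLB (26.0), NTHL1 (21.3), OGG1 (15.2), MUTYH (14.6), TDG (14.0) and NEIL1 (7.89). Neighbours in this order overlapped over libraries for MPG and UNG, POLB and NTHL1, OGG1 and MUTYH, and MUTYH and TDG, and not for the other pairs of neighbours. At 16 mM the order was APEX1 (130.0), XRCC1 (31.2), POLB (29.1), MPG (26.3), TDG (23.3), NTHL1 (22.0), UNG (20.6), MUTYH (10.3), OGG1 (8.56) and NEIL1 (5.66). There the neighbours from XRCC1 down to UNG each overlapped the next, as did MUTYH, OGG1 and NEIL1. Each TDG library was above each MUTYH and OGG1 library. The summed FPKM of the 10 members was 410.4 ± 16.5 (SD, n = 6) in control and 307 ± 21.4 (n = 5) at 16 mM. At 10 mM it was 321 ± 7.53 (n = 5) without library 1, and 549 in library 1.

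Within each group, sets of libraries differed in the same direction for several members. Control library 1 is placed here with libraries 2 and 3. It was not close to them by the rule above (chi-square of 11.59 and 11.2 per gene). UNG was lower in control libraries 4 to 6 than in 1 to 3 (log2 difference of mean FPKM -0.28), in 10 mM libraries 5 and 6 than in 2 to 4 (-0.33) and in 16 mM libraries 4 and 5 than in 1 to 3 (-0.71). MUTYH gave -0.57, -0.35 and -0.55 for the same splits, XRCC1 -0.32, -0.19 and -0.33, OGG1 -0.27, -0.25 and -0.38, and NEIL1 -0.31, -0.50 and -0.92. TDG gave -0.07, 0.05 and -0.06, so its FPKM hardly differed between sets. APEX1 went the other way, with 0.06, 0.36 and 0.08. The median FPKM over all genes also differed between the sets. It was 7.74 to 8.26 in control libraries 1 to 3 and 7.285 to 7.48 in 4 to 6. At 10 mM it was 7.955 to 8.08 in libraries 2 to 4 and 7.08 to 7.23 in 5 and 6. At 16 mM it was 7.81 to 7.86 in libraries 1 to 3 and 6.71 to 6.755 in 4 and 5. What part this has in the differences of the members was not tested. The labels name no batch for these sets. Taken within sets, 16 mM libraries 1 to 3 against control libraries 1 to 3 and 16 mM libraries 4 and 5 against control libraries 4 to 6 gave log2 differences of 0.72 and 0.73 for TDG, -0.79 and -0.79 for XRCC1, -0.82 and -0.93 for OGG1, and -0.77 and -1.21 for UNG. MPG gave -0.54 and -0.90, APEX1 -0.46 and -0.44, and MUTYH -0.57 and -0.55. NEIL1 gave -0.32 and -0.93, POLB 0.17 and 0.06, and NTHL1 changed sign (0.15 and -0.15). These sets were read from the counts after the data were seen and carry no test.

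Several members share genomic bases with another gene, judged from the ends of the gene bodies, introns included. Whether exons overlap was not checked, and the sources used here do not state whether reads keep their strand. What part reads from shared bases have in the counts was not tested. By the deposited coordinates TADA3 and CAMK1 overlap OGG1, TOE1 overlaps MUTYH, TSC2 overlaps NTHL1, MAN2C1 overlaps NEIL1, NPRL3 overlaps MPG, PIP4P1 overlaps APEX1, DKK4 overlaps POLB and ZNF575 overlaps XRCC1. TOE1, a deadenylase, had a log2 change of 0.56 ± 0.08 at 16 mM without 10 mM library 1 (adjusted p = 1.05e-05) while that of MUTYH was -0.48. PIP4P1, a lysosomal lipid phosphatase, gave 0.36 ± 0.08 (adjusted p = 0.000673) while APEX1 gave -0.44. NPRL3, a subunit of a complex that restrains mTORC1, gave -0.61 ± 0.08 (adjusted p = 5.3e-06), close to the -0.65 of MPG. CAMK1 (-0.28 ± 0.06) and TADA3 (-0.27 ± 0.11) were lower by less than OGG1 (-0.75). MAN2C1 (-0.67 ± 0.07) was lower by more than NEIL1 (-0.35). DKK4 reached at most 0.04 FPKM in any library, LOC100652777, listed over NTHL1, at most 0.68 FPKM, and ZNF575 at most 0.94 FPKM beside 26.7 or more for XRCC1. Next to TDG, C12orf73 (87 bases away) gave 0.25 ± 0.10 and GLT8D2 (113 bases away) -1.83 ± 0.30, from 3.31 ± 1.27 FPKM in control (SD, n = 6) to 0.824 ± 0.412 at 16 mM (n = 5). These differences between genes were not tested.

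**Figure D3:**
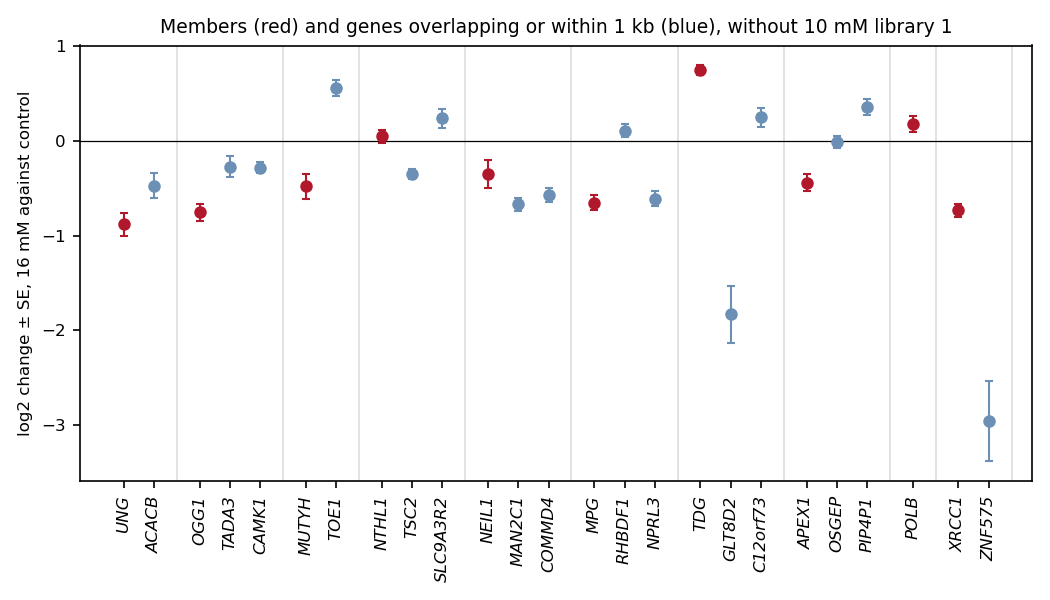
Log2 change ± SE at 16 mM against control (vertical axis, edgeR without 10 mM library 1) of each member in red and of the tested genes that overlap it or lie within 1 kb in blue. The genes overlapping MUTYH (TOE1, 0.56) and APEX1 (PIP4P1, 0.36) lie on the other side of 0 from the member, and that overlapping MPG (NPRL3, -0.61) lies close to it. RHBDF1, the other neighbour of MPG, averaged 14.3 FPKM in control and 15.2 FPKM at 16 mM. OSGEP, the other neighbour of APEX1, averaged 19.2 and 18.8 FPKM.

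The rest of the pathway, 23 further base excision repair genes, held calls in both directions at 16 mM: 4 were called higher and 5 lower with all libraries, and 4 higher and 9 lower without 10 mM library 1. With all libraries these counts are near the shares of all tested genes (17.3% higher, 18.1% lower), and without 10 mM library 1 fewer were called than the 65.9% of all genes. The median log2 change was -0.15 against 0.00 for all tested genes. Of the other glycosylases, NEIL2, which excises oxidised bases from transcribed DNA, rose with a log2 change of 1.09 ± 0.13 (adjusted p = 1.1e-05), from 2.76 ± 0.425 FPKM in control (SD, n = 6) to 5.60 ± 0.545 at 16 mM (n = 5). SMUG1, a back-up uracil glycosylase, had a log2 change of -0.46 ± 0.19 (adjusted p = 0.0703) with all libraries and -0.45 ± 0.07 (adjusted p = 1.35e-05) without 10 mM library 1. MBD4, which acts on the same mismatches as TDG, gave -0.05 ± 0.12 (adjusted p = 0.755), and NEIL3 -0.13 ± 0.10 (adjusted p = 0.335). For MBD4 without 10 mM library 1 the value was -0.05 ± 0.07 (adjusted p = 0.519), and for NEIL3 -0.12 ± 0.05 (adjusted p = 0.0412).

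The sealing enzymes of the pathway's branches moved apart. LIG3, the ligase that XRCC1 binds, rose by a log2 change of 0.53 ± 0.08 (adjusted p = 5.62e-05), with 8.93 to 10.0 FPKM in control and 10.7 to 13.9 FPKM at 16 mM. LIG1, the replicative ligase of the long-patch branch, had a log2 change of -0.86 ± 0.09 (adjusted p = 1.98e-06), with 45.7 to 53.0 FPKM in control and 21.8 to 31.0 FPKM at 16 mM. FEN1, the flap nuclease of the same branch, rose by 0.81 ± 0.15 (adjusted p = 0.000461), from 91.0 ± 11.7 FPKM (SD, n = 6) to 158 ± 3.52 FPKM (n = 5). PARG, which removes poly-ADP-ribose at breaks, rose by 0.58 ± 0.14 (adjusted p = 0.00391). The polymerase genes POLL, POLD1 and POLD3 were called lower (-0.55 ± 0.16, -0.55 ± 0.11 and -0.39 ± 0.13). Without 10 mM library 1 the 16 mM estimates of the genes named here moved by at most 0.01 and their calls were kept. The POLD3 call was lost without control library 2 or 16 mM library 4 or 5 (adjusted p up to 0.0713). It was also lost in the 3 limma fits, with control libraries 4 to 6 only, and in both fits of summed libraries. The LIG3 and PARG calls at 16 mM were lost in the 3 limma fits too, and the POLL call with control libraries 4 to 6 only. At 10 mM 3 of the 23 were called with all libraries, all higher: NEIL2 (0.61 ± 0.13), LIG3 (0.48 ± 0.07) and FEN1 (0.65 ± 0.14, and 0.51 ± 0.09 without 10 mM library 1). The NEIL2 and LIG3 calls at 10 mM were lost in the 3 limma fits, and the FEN1 call with control libraries 4 to 6 only. That of NEIL2 was also lost at 10 mM with close libraries summed without 10 mM library 1. Without 10 mM library 1, 5 were called higher and 7 lower there, where 18.7% of all tested genes were called with all libraries and 45.2% without that library. Without 10 mM library 4, 5 were called in all (19.5% of all genes). With the close libraries summed and that library kept, 0 of the 23 were called at either dose.

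**Figure D4:**
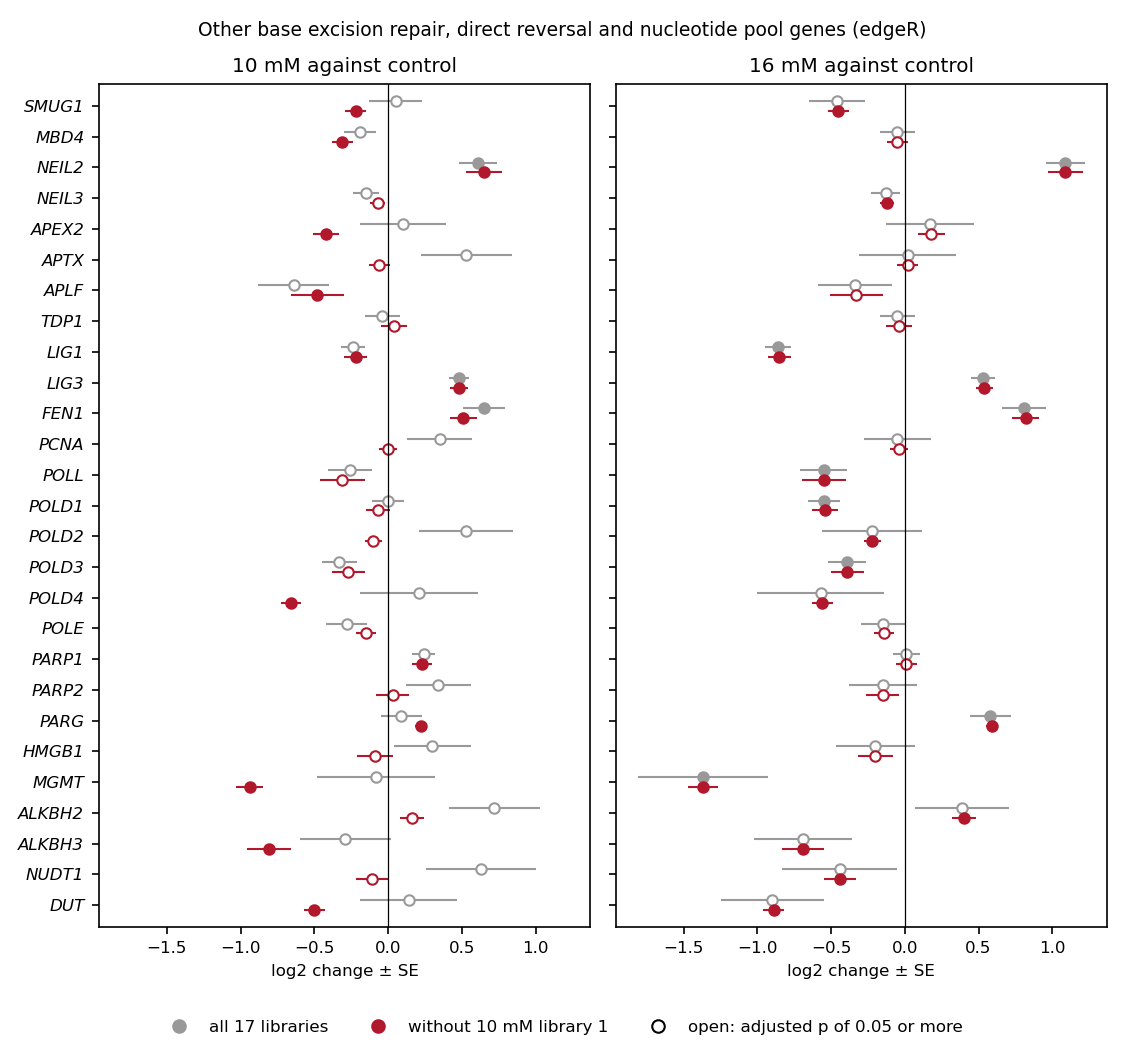
Log2 change ± SE from edgeR (horizontal axis) of other base excision repair genes, from SMUG1 to HMGB1, and direct reversal and nucleotide pool genes, from MGMT to DUT, at 10 mM and 16 mM against control; grey points are all 17 libraries, red points leave out 10 mM library 1, and open points have an adjusted p of 0.05 or more. NEIL2 (1.09), FEN1 (0.81), PARG (0.58) and LIG3 (0.53) lie to the right at 16 mM, and MGMT (-1.37) lies farthest to the left.

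Among 6 genes that repair bases directly or clean the nucleotide pool, 0 were called higher and 1 lower at 16 mM with all libraries, and 1 higher and 5 lower without 10 mM library 1, where 35.3% and 65.9% of all tested genes were called. MGMT, which takes alkyl groups off guanine, had a log2 change of -1.37 ± 0.44 (adjusted p = 0.0216) with all libraries. That call was lost with the close libraries summed and 10 mM library 1 kept (adjusted p = 0.477), where 0 of the 6 were called, and with either set of 3 controls alone. Its FPKM was 27.1 to 32.5 in control, 13.3 to 16.9 in 10 mM libraries 2 to 6 and 9.83 to 14.2 at 16 mM, with 54.9 in 10 mM library 1. DUT, which destroys dUTP and so keeps uracil out of DNA, had a log2 change of -0.90 ± 0.35 (adjusted p = 0.055), and -0.89 ± 0.07 (adjusted p = 2.41e-08) without 10 mM library 1. Its FPKM was 82.4 to 91.2 in control and 39.3 to 52.1 at 16 mM, without overlap. The demethylase ALKBH3 (-0.69 ± 0.14) and the pool enzyme NUDT1 (-0.44 ± 0.11) were also called lower without that library, and the demethylase ALKBH2 was called higher (0.40 ± 0.08).

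Genes of cycling cells were listed because several repair genes follow DNA replication. Of 10 such genes, 1 was called higher (CDK1, 0.38 ± 0.14, adjusted p = 0.0472) and 0 lower at 16 mM with all libraries, where 35.3% of all tested genes were called. The CDK1 call was lost in 14 of the 17 fits that each left out 1 library, namely all but those without control library 4 or 5 or 10 mM library 1 (adjusted p up to 0.103). It was also lost with the close libraries summed, with 10 mM library 1 (adjusted p = 0.444) and without it (0.0738). Without 10 mM library 1, CDK1 (0.39 ± 0.13, adjusted p = 0.0126) was called higher and the replicative helicase subunits MCM2 (-0.41 ± 0.08), MCM3 (-0.29 ± 0.09) and MCM5 (-0.97 ± 0.09) lower, where 65.9% of all genes were called. The summed FPKM of the 10 was 1050 to 1435 in control and 1023 to 1224 at 16 mM, so the groups overlapped. Their part in the changes of the members was not tested.

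The genes whose profiles over the 16 libraries other than 10 mM library 1 were most like those of UNG, OGG1 and XRCC1 were found among 11322 genes with a mean of at least 1 FPKM. Likeness was the root mean square difference of centred log2(FPKM + 1) values. For UNG these were WDR76 (0.072), OGFRL1 (0.079) and the helicase subunit MCM5 (0.084), where the SD of UNG itself was 0.46. For OGG1 they were EHBP1 (0.074), the replication factor GINS2 (0.080) and the cohesin subunit STAG1 (0.086), with an SD of 0.39. For XRCC1 they were CGGBP1 (0.061), TRIM37 (0.062) and LCMT1 (0.066), with an SD of 0.35. The 16 mM changes of XRCC1 (-0.74) and TDG (0.74) are the same size to 2 decimals, so TDG was added after the values were seen: its nearest genes were BRIX1 (0.059), DHX30 (0.061) and SETD7 (0.062), with an SD of 0.30. The values describe likeness over these libraries, which share the doses and the close sets, and carry no test.

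In the authors' deposited table, the members with a q-value under 0.05 were 1 higher and 7 lower at 16 mM, and 1 higher and 0 lower at 10 mM, where 50.4% and 15.4% of all genes with a q-value passed in the authors' deposited table. TDG was the member called higher there at both doses (log2 fold change 0.74, q = 1.44e-31 at 16 mM, and 0.43, q = 1.98e-07 at 10 mM). XRCC1 had a log2 fold change of -0.34 with q = 0.0858 at 10 mM in the authors' deposited table, against an adjusted p of 0.0275 in edgeR.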

How the data were processed

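Messenger RNA was measured in 17 libraries of BEAS-2B cells (6 control, 6 at 10 mM and 5 at 16 mM), grouped by their titles. The submitters' processing notes list build GRCh38.p13 and the tools RSEM 1.3.1, Bowtie2 2.3.4.3, HISAT and DESeq2 1.4.5, without saying what each did. The deposited columns called read counts per the file headers are treated here as estimated counts, as 13.1% of the values are not whole. The deposited FPKM, per the file headers, are scaled for transcript length and depth by the definition of the unit, so a library with unusual transcript lengths shifts them. The deposited TPM, per the file headers, sum to 999999.24 to 1000000.22 per library and served to check the table. Log2 fold changes, p-values and q-values from the authors' deposited table are printed only in sentences that say so.

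Estimated counts were rounded, then tested in R 4.3.3 with edgeR 4.0.16 (TMM, filterByExpr, glmQLFit and glmQLFTest, 1 fit over all 17 libraries, 14 residual degrees of freedom). P-values are two-sided with Benjamini-Hochberg adjustment over all genes tested. Calls needed an adjusted p under 0.05. To give an SE, the size of each log2 change was divided by the root of its F. The fit was also run on simulated counts with the same spread for every gene. Those counts had no library set apart and no close sets, so the run cannot speak to either. Alternatives were a replicate block, DESeq2 size factors and the DESeq2 1.42.0 Wald test, no count filter, limma 3.58.1 on log2(FPKM + 1) or log2(FPKM + 0.1), control libraries 1 to 3 or 4 to 6 only, fits of only the groups compared, voom with library weights, and each library left out. The block was also run without 10 mM library 1. Summing close libraries, with or without 10 mM library 1, was added after the data were seen.

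The 10 members and all lists were chosen with earlier results of these data known. By rule, all members are named, as are other base excision repair genes called at 16 mM, the other glycosylases, the reversal and pool genes, cycling genes, genes overlapping or within 1 kb of a member, and the 3 genes most like each of the 3 members with the largest changes at 16 mM (TDG was added after its values were seen). A few listed genes are counted but not reported here by name. Members' gene coordinates are those of the deposited table, and promoter sequence is from RefSeq, GRCh38.p14.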

Additional observations from a re-analysis of the deposited data

Results flagged for a closer look

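A Dixon test at the 95% level was applied to the FPKM of each member in each group of 5 or 6 libraries, 30 groups in all, and marked 6, where chance alone marks about 1 group in 20. All 6 were 10 mM library 1. It held 63.92 FPKM of UNG, 26.45 FPKM of OGG1, 49.30 FPKM of NTHL1, 271.29 FPKM of APEX1 and 33.32 FPKM of POLB, each above the other 5 libraries of its group. For TDG it held 10.12 FPKM, below the other 5. Relative to the mean of the other 10 mM libraries these values were 2.74 times for UNG, 2.85 times for OGG1, 1.91 times for NTHL1, 2.06 times for APEX1, 1.29 times for POLB and 0.543 times for TDG. The same library had a mean transcript length of 1023 nt and a TMM factor of 0.559. FPKM do not carry that factor, so these marks hold for the FPKM scale only. In edgeR, which uses the factor, the TDG log2 change at 10 mM was 0.40 with all libraries. It was 0.38 to 0.42 with each library left out, this one among them. What part the transcript length has in the values was not tested.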

How the results depend on the processing

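Limits: the estimates of the members at 16 mM kept their sign in all alternatives except that of NTHL1, which was near 0. TDG and XRCC1 were called there in all alternatives except close libraries summed with 10 mM library 1 kept. The calls of the other members depended on whether that library entered the estimate of spread and on the test. Summing close libraries leaves few degrees of freedom. At 16 mM the sums called 0.985% of all genes with 10 mM library 1 and 39.2% without it. The fits of single libraries called 35.3% and 65.9%. At the depths here, NEIL1 had 51.2 to 278 estimated counts per library, the fewest of the members.

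With each library left out in turn, the members called numbered 1 to 8 at 10 mM (2 with all libraries) and 2 to 8 at 16 mM (2). Between the doses they numbered 1 to 4 (2). The highest value in each case was without 10 mM library 1, and without any other library the counts were 1 to 3, 2 to 2 and 1 to 2. The other base excision repair genes called numbered 3 to 12 at 10 mM (3), 7 to 13 at 16 mM (9) and 2 to 9 for 16 mM against 10 mM (4). The last fell to 2 without 16 mM library 3, 4 or 5.

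Of the members at 10 mM, 1 was called with DESeq2 size factors, limma with a pseudocount of 0.1, limma without a filter, only the groups compared, and control libraries 4 to 6. Voom with library weights called 8 (59.8% of all genes), close libraries summed 0, and the same without 10 mM library 1 4 (9.01% of all genes). At 16 mM limma called 7 (pseudocount 1), 6 (pseudocount 0.1) and 6 (no filter), with 31.9%, 30.2% and 25.2% of all genes, voom 8 (73.2% of all genes), only the groups compared 7, and close libraries summed 0 and, without 10 mM library 1, 5. Between the doses 1 was called without the count filter, in all 3 limma fits and with only the groups compared, 5 with voom (59.9% of all genes), and 0 with close libraries summed in either way. Other base excision repair genes called at 10 mM were 7 by the DESeq2 Wald test, 13 with voom, 5 with control libraries 1 to 3 and 0 with close libraries summed. At 16 mM they were 14 with voom and 0 with close libraries summed. Between the doses they were 2 and 1 by limma (pseudocounts 1 and 0.1), 12 with voom, 2 with only the groups compared, and 0 with close libraries summed in either way. The cause of these differences was not tested. The DESeq2 Wald test gave no adjusted p for UNG, OGG1 and APEX1 in any of the 3 comparisons.

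The replicate numbers were not taken to pair the libraries, since not every pair correlated: same-numbered libraries of different groups correlated in their deviations from the group means at r of -0.39 to 0.41, above 0.1 in 12 of 16 pairs, and a library correlated best with its own number in 9 of 32 cases. With the replicate number as a block, 2 members were called at 10 mM, 5 at 16 mM and 2 in 16 mM against 10 mM, with UNG, MUTYH and MPG added at 16 mM (adjusted p = 0.038, 0.0243 and 0.0483); 14.5%, 33.1% and 10.4% of all genes were called. The block without 10 mM library 1 called 8, 9 and 3 members, and 12, 14 and 11 other base excision repair genes, where 45.1%, 67.8% and 46.9% of all genes were called. In the block fit the 10 mM log2 changes were -0.28 for UNG, -0.23 for OGG1, -0.15 for MPG and -0.07 for APEX1, and without 10 mM library 1 they were -0.67, -0.62, -0.45 and -0.45, with 0.07 for NEIL1. The block gave -0.00 for NTHL1 at 16 mM, and the block without 10 mM library 1 gave 0.04 for APEX1 and 0.16 for POLB between the doses.

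Log2 changes changed sign in 58 of the fits of the members, all in values that were not called with all libraries. For UNG at 10 mM (0.05) they were -0.45, -0.47 and -0.45 by limma (pseudocount 1, 0.1, no filter), -0.61 with voom, -0.02 with control libraries 1 to 3 and -0.75 with close libraries summed without 10 mM library 1, and -0.71 to 0.20 with each library left out. For OGG1 at 10 mM (0.05) they were -0.42, -0.45 and -0.42 by limma, -0.54 with voom and -0.70 with the sums, and -0.65 to 0.18 with each library left out. For MPG at 10 mM (0.00) they were -0.33 in all 3 limma fits, -0.44 with voom, -0.02 without the count filter, -0.04 with control libraries 4 to 6 and -0.46 with the sums, and -0.45 to 0.10 with each library left out. For APEX1 at 10 mM (0.13) they were -0.27 in all 3 limma fits, -0.66 with voom and -0.38 with the sums, and -0.43 to 0.25 with each library left out. NEIL1 at 10 mM (-0.11) gave 0.18 with voom and 0.01 with the sums, and -0.22 to 0.05 with each library left out. POLB at 10 mM (0.33) gave -0.04 with the sums and -0.00 to 0.39 with each library left out. NTHL1 at 16 mM (0.04) gave -0.00 with control libraries 4 to 6. Between the doses MUTYH (-0.19) gave 0.10 with voom, 0.03 with the sums and -0.27 to 0.04 with each library left out, and APEX1 (-0.58) gave 0.07 with voom. POLB between the doses (-0.16) gave 0.09 in all 3 limma fits, 0.24 with voom, 0.16 with the sums and -0.23 to 0.18 with each library left out. The sums named here leave out 10 mM library 1.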
